A study of Mus musculus with 18 samples.

Results

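The cytosolic ribosome is built from a small and a large subunit, each holding ribosomal RNA and a fixed set of proteins, and the genes of these proteins are among the most highly expressed in any tissue. Their mRNAs belong to the TOP class, which carry a run of pyrimidines at the 5′ end and whose translation is governed by mTOR signalling. Because they are abundant and present in all cells, some of them, above all Rplp0, serve as reference genes in quantitative PCR, while a few, such as Rpl11, also bind Mdm2 and so act on p53 when ribosome assembly is disturbed.

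The genes described here are those whose symbol has the form of a cytosolic ribosomal protein name (Rpl or Rps with a number, Rplp0 to Rplp2, and Rpsa). A gene was read from probe sets annotated to it alone, and from the set with the highest mean over all 18 arrays where it had several. This gave 46 genes of 18193 with a set of their own, 24 named for the large subunit and 22 for the small subunit. Of these, 5 read under 6 (log2 signal) in all 18 arrays and are kept apart as low readings: Rpl12, Rpl39l, Rpl3l, Rps16 and Rps27. The other 41 reached 6 or more in at least 1 array. Just under that limit Rpl12 had a highest reading of 5.07, and just over it Rpl14 had one of 6.45. Rps25 and Rpl14 reached 6 in GalN livers alone, Rpl14 in 1 array, so that being kept was not independent of the liver response. For liver against sham, the medians and the counts of positive differences and of calls are also given for the 39 genes without them. So are the counts of calls where the liver and kidney responses are compared. Other medians, quartiles and counts over the 41 include both genes. A further 28 symbols of this form occur only on sets that name several genes and are not described by name. Of the 46 sets read, 17 have an x in their name, the mark of probes that may also match other transcripts. Those of Rpl7, Rpl27, Rpl37, Rps7, Rps9, Rps20 and Rps27l are among them. How far such sets report the named gene alone was not tested.

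The samples were livers and kidneys of male C57BL6 mice of 20 g given D-(+)-galactosamine HCl (GalN), an amino sugar that injures hepatocytes, as 1 intraperitoneal injection of 4.5 g/kg, with tissue taken 24 h or 48 h later, or saline, with tissue taken at 24 h (called sham here). There was no 48 h saline group. Each of the 6 groups had 3 Affymetrix whole-genome mouse arrays, lettered A to C, and 30 mg of each perfused organ was extracted. The study's text can also be read as a pool of the 3 animals of a group, in which case p-values measure technical spread only; arrays are treated here as single animals.

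The tissue labels were checked against marker genes. All 10 hepatocyte markers measured read above 6 in every liver group, and all 10 proximal tubule and 7 distal nephron markers did so in every kidney group. Array medians lay between 2.36 and 2.43. One array stood apart: 48 h GalN liver C had a gap between the 3′ and 5′ actin control sets of 2.56 log2 units, against 1.70 and 1.77 in the other 48 h livers and 1.48 to 1.95 in the 24 h and sham livers. The main liver counts of calls and medians are also given without this array, as are other values where leaving it out ended a call or moved a count by over 1.5 times. The fits on arrays scaled to a reference were not repeated without it.

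To show what the TOP feature looks like in these genes, the mouse sequence around the annotated start was read from RefSeq's promoter sequences (GRCm38.p6), which were matched for 40 of the 46 genes. A C followed by at least 4 bases that were each C or T, on the transcribed strand and beginning exactly at the annotated start, was present in 8 of the 40 genes (20.0%) and in 3.01% of the 27025 genes with such a sequence. With the beginning allowed within 5 bases on either side, the run was found in 19 of the 40 (47.5%) and in 21.2% of all genes. The 6 genes shown first have the run at the start, and Rplp0 and Rps25 are shown because later results turn on them. Each line gives 15 bases before the start and 15 from it, and capitals mark the pyrimidine run. Rpl35 lies at chr2:39005117-39005146 (minus strand), Rps6 at chr4:86857353-86857382 (minus strand), Rplp2 at chr7:141447636-141447665 (plus strand), Rpl38 at chr11:114668565-114668594 (plus strand), Rps10 at chr17:27635230-27635259 (minus strand) and Rps18 at chr17:33955651-33955680 (minus strand). Rplp0 lies at chr5:115559452-115559481 and Rps25 at chr9:44407699-44407728, both on the plus strand.
Rpl35: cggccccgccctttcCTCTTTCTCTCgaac
Rps6: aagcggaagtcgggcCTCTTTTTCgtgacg
Rplp2: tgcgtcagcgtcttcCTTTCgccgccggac
Rpl38: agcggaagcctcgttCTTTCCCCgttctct
Rps10: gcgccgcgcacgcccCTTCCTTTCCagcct
Rps18: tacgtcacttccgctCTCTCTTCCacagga
Rplp0: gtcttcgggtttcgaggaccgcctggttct
Rps25: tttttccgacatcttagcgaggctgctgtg
The last pair has no such run at the annotated start, which says only that these letters are not in this window.

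In liver a part of the ribosomal protein genes rose after GalN, mostly by small amounts, and none was called lower. At 24 h of GalN, 16 of the 43 tested genes were called higher than in sham liver (37.2%, against 17.9% of all 12071 genes tested) and 0 were called lower (15% of all genes). At 48 h, 15 of 43 were called higher (34.9%, against 6.24% of all genes) and 0 lower (3.94% of all genes). The called genes overlapped: 11 were called at both times, 5 at 24 h alone and 4 at 48 h alone; being called at 1 time alone is not a test of the difference between times. Calls are limma's adjusted p under 0.05, with Benjamini-Hochberg adjustment over all genes tested. The 3 genes not tested, Rpl39l, Rpl3l and Rps16, did not pass the filter on low values.

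Among the 41 genes reading 6 or more, 39 had a positive log2 difference at 24 h, with a median of 0.37 (1.29-fold) and quartiles of 0.29 and 0.49, and the median over all genes tested was 0.00. At 48 h, 39 of 41 were again positive, with a median of 0.55 (1.46-fold) and quartiles of 0.37 and 0.73, against 0.03 over all genes. Without Rps25 and Rpl14, 37 of 39 were positive at each time, with medians of 0.37 and 0.50, and 15 and 14 were called higher, a count chosen after seeing the data. The median standard error of these differences was 0.14 at each time. At 24 h, 34 of the 41 changes fell between 0.2 and 0.8, and 28 did at 48 h. In 35 of the 43 genes all 3 arrays at 24 h lay above all 3 sham arrays (81.4%, against 27.3% of all genes), and the same number did at 48 h (81.4%, against 17.7%). These counts include Rps25 and low readings, which were Rpl12 and Rps27 at 24 h and Rps27 at 48 h. Rpl12 passed the filter on low values through the 24 h livers alone. Its place in the 24 h count was therefore not independent of the liver response. Among the 41 genes reading 6 or more, 33 did so at 24 h and 34 at 48 h. Large and small subunit genes had medians of 0.37 and 0.36 at 24 h and of 0.49 and 0.58 at 48 h, with 10 of 21 and 6 of 20 called higher at 24 h. Genes with a pyrimidine run within 5 bases of the annotated start had medians of 0.34 at 24 h and 0.56 at 48 h (17 genes), against 0.41 and 0.51 in those without one (18 genes), values given as a description only.

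**Figure D1:**
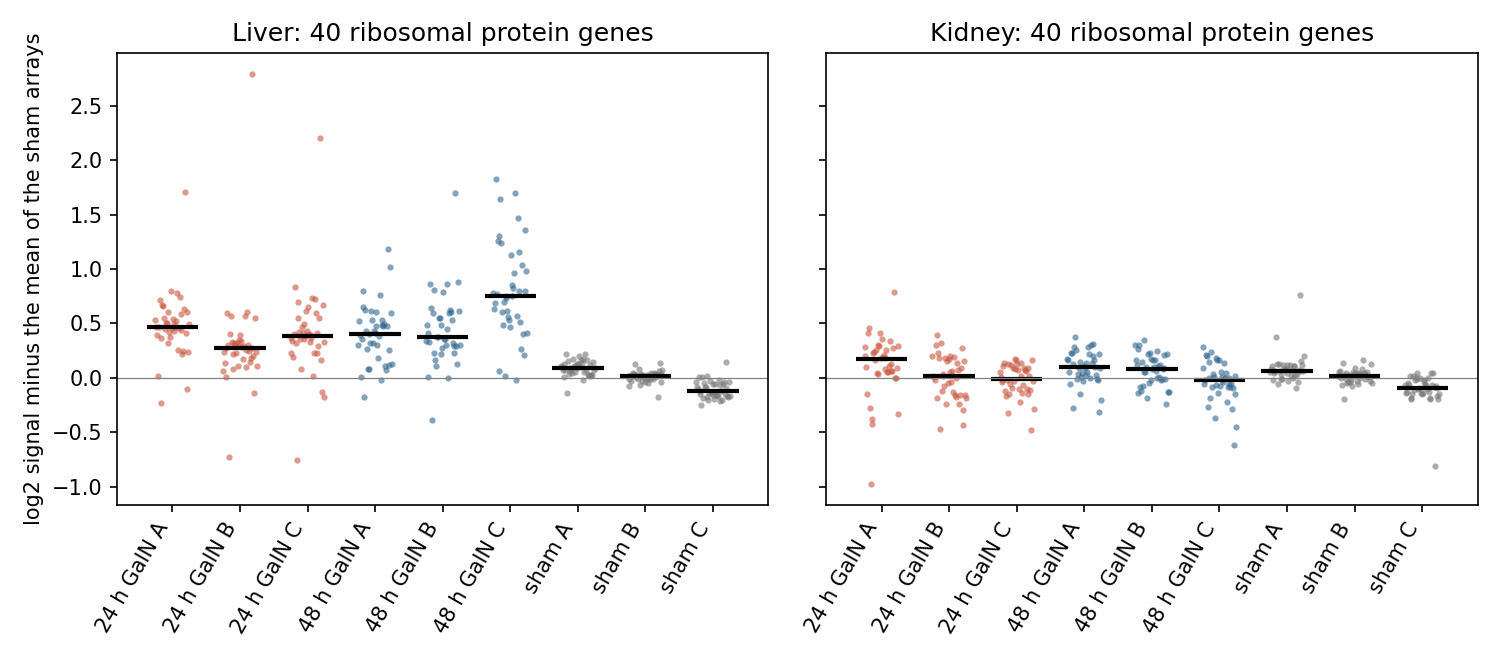
Each point is 1 of 40 ribosomal protein genes reading 6 or more (Rps25 left out), plotted by array as its log2 signal minus the mean of the 3 sham arrays of the same organ; black bars are medians over the genes. Most points of the 6 GalN livers lie above 0, those of 48 h liver C lie highest, and the GalN kidneys stay near 0.

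The counts of calls depended on single arrays more than the direction did. Without 48 h liver C, 28 genes were called higher and 1 lower at 24 h, beside 2525 and 2127 of all 11997 genes. At 48 h 21 were then called higher, beside 1008 of all genes, with a median of 0.40. That array held the highest median signal of these genes, 14.62, against 14.21 and 14.29 in 48 h livers A and B and 13.70 to 13.98 in sham livers. Without sham liver B the 24 h count fell to 8, beside 1586 of all 12016 genes called higher. Without sham liver C it fell to 7, beside 1762 of 12023, a share close to that of all genes. The 48 h count fell to 5 or 6 without sham liver B or C, beside 273 and 335 of all genes. Without 24 h liver C the 24 h count was 8, beside 1628 of 11999. Without 24 h liver A it was 10 with 1 of them lower. Without sham liver A the 48 h count was 10, beside 458 of all genes. The median at 24 h stayed between 0.31 and 0.44 with any 1 of the 9 liver arrays left out, and at 48 h between 0.40 and 0.59. The rank product, which the study's text names as its test, called 1 of these 43 genes higher at each time, Rps25, whose sham readings lay near the floor. Of all 12071 genes it called 293 higher at 24 h and 133 at 48 h. The share at 24 h was close to that of all genes.

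Markers of other liver cells were read beside these genes. Of 11 macrophage markers measured, 7 were called higher at 24 h (63.6%, against 17.9% of all genes) and 3 at 48 h (27.3%, against 6.24%). Their median difference was 1.12 at 24 h and 0.89 at 48 h. The log2 of their summed signal was 14.6 to 14.8 in 24 h livers and 14.4 to 14.5 in 48 h livers, against 13.2 to 13.7 in sham livers. Of 10 endothelial markers, 6 were higher at 24 h (60%) and 1 at 48 h (10%, and 0 without 48 h liver C), with medians of 1.17 and 0.56. Their summed levels were 10.4 to 11.6 and 10.6 to 10.7, against 9.95 to 10.1 in sham livers. From 24 h to 48 h the median difference was -0.27 for macrophage and -0.69 for endothelial markers. For the 41 ribosomal protein genes it was 0.17, and 0.00 without 48 h liver C. No marker of either list was at the floor in liver. The hepatocyte list gave 18.9 at 24 h, 18.7 to 18.9 at 48 h and 19.1 in sham livers. Of its 10 markers 1 was called lower at 24 h and 4 at 48 h, against 15% and 3.94% of all genes, and 0 were higher. Without 48 h liver C, 5 were lower at 24 h and 3 at 48 h. Of 8 myofibroblast markers tested, 2 were higher at 24 h, Pdgfrb and Lrat, and 0 at 48 h. Lymphocyte markers had 6 to 7 of 9 at the floor in every liver group. The part of these cells in the ribosomal protein result was not tested, and in whole organs fewer cells of a type cannot be told apart from less RNA per cell.

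Among the proteins of the large subunit, Rpl22, an RNA-binding protein of the 60S particle, had the largest called rise at 24 h. It read 13.86, 13.75 and 13.99 in 24 h livers and 13.95, 14.01 and 14.41 in 48 h livers, against 13.23, 13.20 and 13.03 in sham livers. All 6 GalN livers lay above all 3 sham livers. The log2 difference was 0.71 ± 0.14 (SE, adjusted p = 0.00717, limma) at 24 h and 0.97 ± 0.14 (adjusted p = 0.00907) at 48 h, and both calls held with any 1 array left out. The 24 h call was lost in 6 of 17 other settings (arrays centred, scaled to Rplp0, the ribosomal median, Actb or Gapdh, and the rank product) and the 48 h call in 3 (all sets averaged, Actb and the rank product). Another set of Rpl22 gave 0.59 at 24 h, not called, and 0.95 at 48 h, called. The remaining set, whose mean over all arrays was 8.74, was positive at 24 h and negative at 48 h and was called at neither time.

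Rpl37, a small zinc-binding protein of the large subunit, read 11.45, 11.35 and 11.48 in 24 h livers and 11.22, 11.59 and 12.03 in 48 h livers, against 10.83, 10.80 and 10.73 in sham livers. These groups did not overlap either. Its difference was 0.64 ± 0.19 (adjusted p = 0.0359) at 24 h, a call lost without any 1 of 7 of the 9 liver arrays (adjusted p = 0.0547 to 0.0991), and 0.83 ± 0.19 (adjusted p = 0.0358) at 48 h. Rpl27 read 14.49, 14.43 and 14.45 in 24 h livers and 14.78, 14.77 and 15.43 in 48 h livers, against 14.35, 14.16 and 13.88 in sham livers. Its 48 h rise of 0.87 ± 0.20 (adjusted p = 0.0369) was likewise lost without any 1 of 7 arrays (adjusted p up to 0.114). Rpl8, Rpl4, Rpl6, Rpl37a, Rpl7, Rpl11 and the P-stalk genes Rplp0 and Rplp2 made up the other called large-subunit genes at 24 h, with differences of 0.36 to 0.59.

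Rpl11 forms, with Rpl5 and 5S rRNA, the particle that binds Mdm2. It read 14.09, 13.85 and 13.98 in 24 h livers and 14.14, 14.10 and 14.25 in 48 h livers, against 13.71, 13.60 and 13.53 in sham livers. The differences were 0.36 ± 0.09 (adjusted p = 0.0179) and 0.55 ± 0.09 (adjusted p = 0.0125), near the median of the group. The 24 h call was lost without 24 h liver C, sham liver B or sham liver C (adjusted p = 0.0521 to 0.0597), and the 48 h call without sham liver B (adjusted p = 0.051). Set against Rplp0 the 24 h difference of Rpl11 was -0.04, and against the median of these genes -0.06, so that it differed little from the other ribosomal protein genes. The calls were lost in 6 of 17 other settings at 24 h and in 5 of 17 at 48 h. In a list of p53 targets and 5S-particle genes read beside it, 10 of 12 were called higher at 24 h and 4 of 12 at 48 h, led by the cell cycle inhibitor Cdkn1a, with differences of 7.16 and 3.62.

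Rpl27a, of the large subunit, had the lowest difference at 24 h. The set read for it had a mean of 7.11 over all 18 arrays, and whether that set reports the main transcript was not tested. Rpl27a read 7.61, 7.11 and 7.09 in 24 h livers and 7.66, 7.45 and 7.90 in 48 h livers, against 7.70, 7.97 and 7.85 in sham livers. At 24 h it was the one gene with all 3 arrays below all 3 sham arrays, with a difference of -0.57 ± 0.19 that did not pass the test (adjusted p = 0.0546), and at 48 h the groups overlapped (-0.17 ± 0.19).

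Among the proteins of the small subunit, Rps7 was called at both times. It read 14.22, 14.17 and 14.29 in 24 h livers and 14.63, 14.50 and 14.98 in 48 h livers, against 13.76, 13.65 and 13.44 in sham livers. The differences of 0.61 ± 0.14 (adjusted p = 0.0139) and 1.09 ± 0.14 (adjusted p = 0.00729) both kept their call with any 1 array left out. The 24 h call was lost in the same 6 of 17 other settings as that of Rpl22, and the 48 h call in 2 (Actb and the rank product). Its other set gave 0.37 (not called) and 0.70 (called). Rps19, whose loss in humans causes Diamond-Blackfan anaemia, read 13.30, 13.09 and 13.25 in 24 h livers and 13.29, 13.39 and 14.22 in 48 h livers, against 12.69, 12.51 and 12.36 in sham livers. Its 24 h difference of 0.69 ± 0.24 did not pass (adjusted p = 0.0662), and its 48 h difference of 1.11 ± 0.24 did (adjusted p = 0.0322) but not without any 1 of 6 arrays, all of them 24 h or sham livers (adjusted p = 0.051 to 0.105). Rps6, the substrate of the S6 kinases downstream of mTOR, read 9.08, 9.04 and 9.06 in 24 h livers and 9.44, 9.30 and 9.98 in 48 h livers, against 9.21, 9.31 and 9.02 in sham livers. It was called at neither time (-0.12 ± 0.18 and 0.39 ± 0.18), and its groups overlapped. The set read for Rps6 had a mean of 9.01 over all 18 arrays, and whether it reports the main transcript was not tested.

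Rps4l, a Rps4x-like gene, had a far larger change than the group. It read 10.60, 11.68 and 11.09 in 24 h livers and 10.07, 10.59 and 9.29 in 48 h livers, against 8.91, 8.72 and 9.04 in sham livers. All 6 GalN livers exceeded the sham livers, and the 24 h difference of 2.24 ± 0.38 (4.71-fold, adjusted p = 0.00426) held with any 1 array left out and in 16 of 17 other settings, all but the rank product. At 48 h the difference was 1.09 ± 0.38 (adjusted p = 0.121). Rps4x, which encodes the common form of the protein, differed by 0.26 ± 0.09 (adjusted p = 0.0673) at 24 h and 0.21 ± 0.09 (adjusted p = 0.204) at 48 h.

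The set read for Rps25, a small-subunit protein, was far higher in all 6 GalN livers than in the sham livers, where it lay near the floor. It read 7.36, 8.88 and 6.50 in 24 h livers and 8.70, 8.66 and 7.57 in 48 h livers, against 3.56, 3.56 and 2.97 in sham livers. In the 9 kidney arrays it read 2.97 to 3.67. Both liver comparisons were called (adjusted p = 0.00235 at 24 h and 0.00687 at 48 h, limma). Sham and kidney readings near the floor are no measured level, so the size of the change is not known. Neither a difference nor a fold against sham is given, and the excess over kidney listed at the end is not a measured size. This is the one set annotated to Rps25 alone, and it is unsettled whether it reports the main transcript.

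The paralogue pair Rps27 and Rps27l could be read only in part, and the set read for Rps27l is one that may also match other transcripts. Rps27l, a p53-inducible copy of Rps27 in humans, read 14.49, 14.30 and 14.47 in 24 h livers and 14.54, 14.58 and 15.21 in 48 h livers, against 14.22, 14.08 and 13.85 in sham livers. The groups did not overlap, but the differences of 0.37 ± 0.19 (adjusted p = 0.189) and 0.73 ± 0.19 (adjusted p = 0.0575) did not pass the test. Its 3 sets gave 0.33 to 0.43 at 24 h and 0.73 to 0.85 at 48 h, none of them called. Rps27 stayed between 4.27 and 4.94 in all 18 arrays, and Rpl39l and Rpl3l between 2.21 and 2.77, so no change is read from them. Rpl39 itself read 8.38 to 9.25 across the livers and was not called (0.23 ± 0.21 and 0.30 ± 0.21). Rps16 sat at the table's lowest value, 2.21, in all 18 arrays, and Rpl12 reached 5.07 in 24 h liver A but stayed at 3.24 or lower elsewhere.

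**Figure D2:**
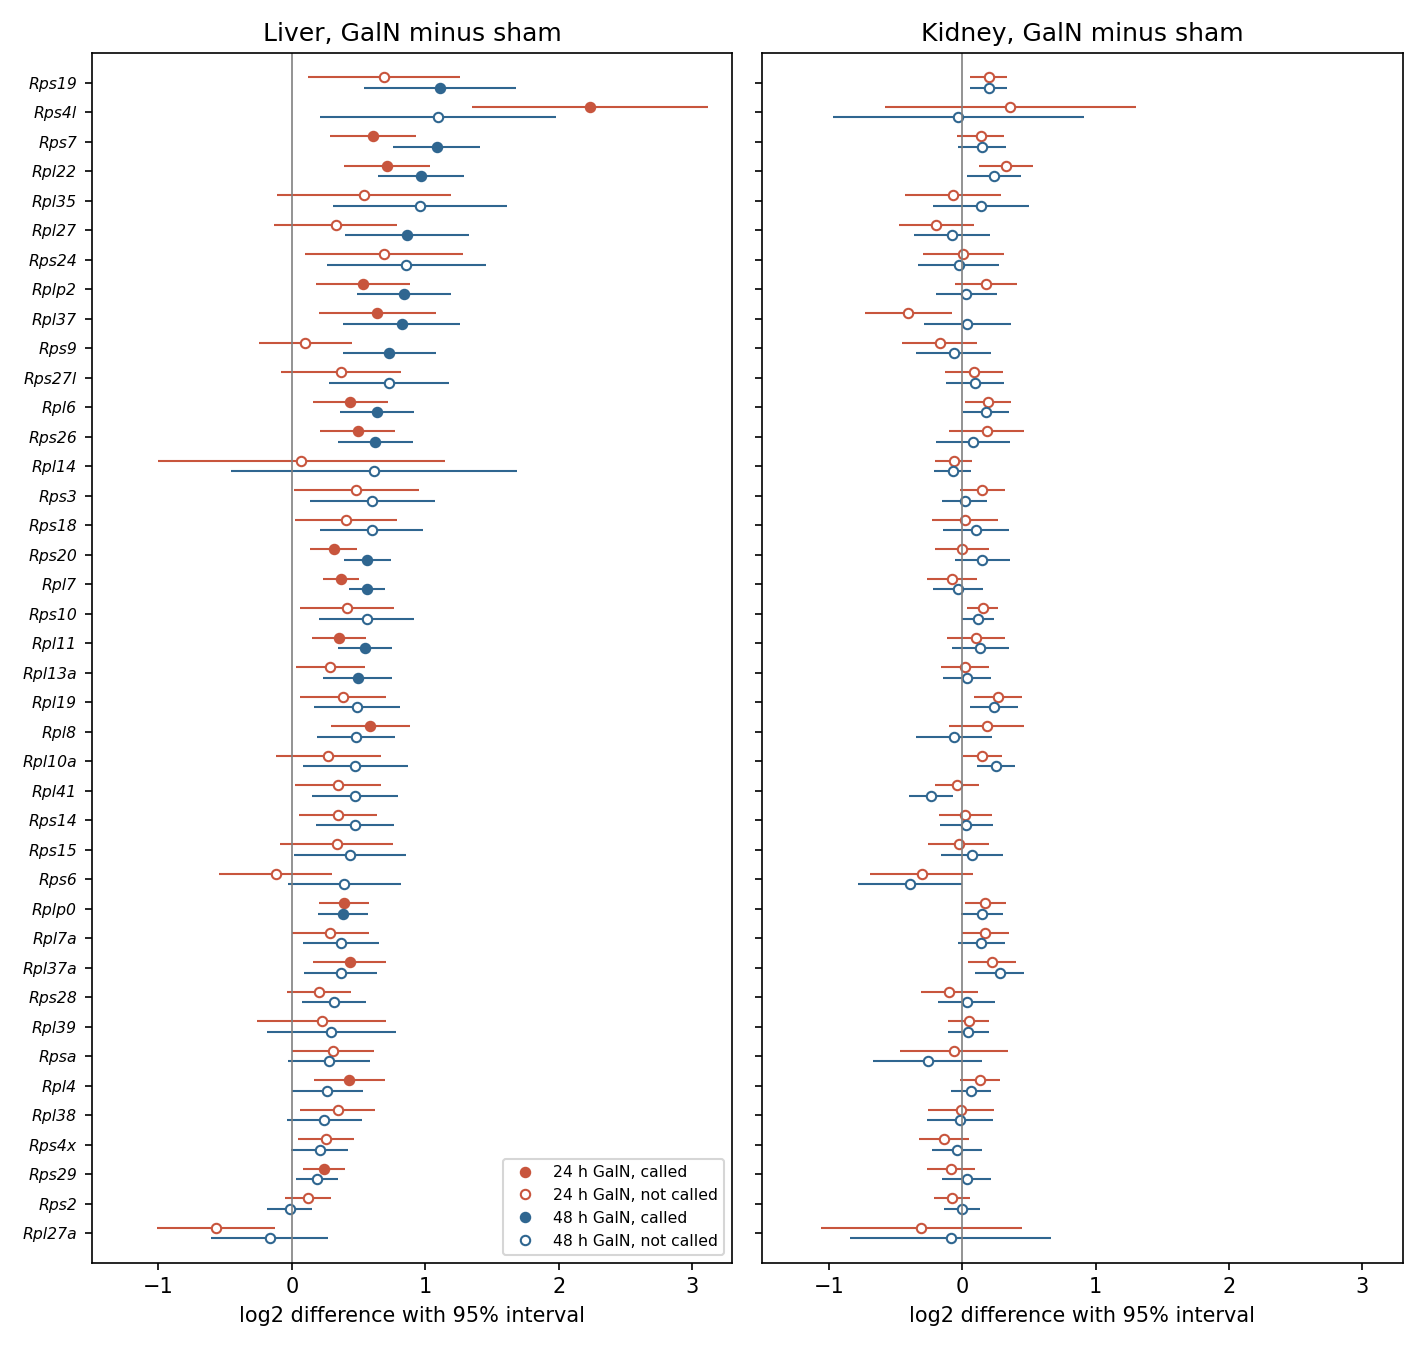
Log2 difference of GalN minus sham for 40 ribosomal protein genes (Rps25 left out), with 95% intervals, in liver (left) and kidney (right), ordered by the 48 h liver difference; filled points are called by limma. In liver nearly all points lie right of 0 with Rps4l farthest at 24 h and Rpl27a on the left, and in kidney no point is filled.

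All probe sets of these genes were read as well, with those already used above among them, so these counts are not independent of the earlier ones. Of the 100 sets annotated to 1 of these genes, 69 sets of 35 genes had a mean of 10 or more, and all 69 were positive at 24 h, with 22 called higher (31.9%, against 15.8% of all 22914 sets tested by themselves) and 0 lower. At 48 h 68 of 69 were positive, with 25 called higher (36.2%, against 4.77% of all sets) and 0 lower. Their medians were 0.38 and 0.60. Without the limit of 10, 83 of the 85 sets tested were positive at 24 h and 78 at 48 h, with medians of 0.37 and 0.56. The 110 sets that name a gene of this form together with other genes gave 40 called higher of 97 tested at 24 h (41.2%) and 43 at 48 h (44.3%), with 0 lower and medians of 0.32 and 0.52. These sets were not used for any gene and come from the same arrays.

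Between 24 h and 48 h few genes were called. In liver 4 of 43 genes were called higher at 48 h than at 24 h (9.3%, against 14.6% of all genes) and 0 lower: Rps9 (0.63 ± 0.15, adjusted p = 0.0186), Rps7 (0.48 ± 0.14, adjusted p = 0.04), Rps20 (0.25 ± 0.08, adjusted p = 0.0454) and Rpl7 (0.20 ± 0.06, adjusted p = 0.0428). Rps9, a small-subunit protein, read 15.21, 15.23 and 15.59 in 48 h livers, against 14.85, 14.85 and 14.44 in 24 h livers and 14.69, 14.57 and 14.57 in sham livers. All 3 of the 48 h livers lay above the other 6. The call held with any 1 array left out but was lost in 3 of 16 other settings (scaled to Actb, array letter as a block, and the 6 arrays compared alone). The other 3 calls were each lost without any 1 of 7 or 8 of the 9 liver arrays (adjusted p up to 0.13), and with all sets of a gene averaged the difference of Rps20 turned to -0.04. The median difference of the 41 genes was 0.17, and 0.00 without 48 h liver C.

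In kidney 0 of 42 tested genes were called at 24 h (5.31% of all 12003 genes were called in either direction), 0 at 48 h (2.69%) and 0 between 48 h and 24 h (1.61%). At an unadjusted p under 0.05 there were 10 (23.8%, against 23.8% of all genes), 10 (23.8%, against 19.4%) and 2 (4.76%, against 18.3%), and the rank product also called 0 at 24 h and 0 at 48 h. The median difference of the 41 genes was 0.02 at 24 h and 0.04 at 48 h, with 33 of 41 changes within 0.2 of 0 at each time. In 10 of 42 genes the 24 h arrays lay above all sham arrays (23.8%, against 12.7% of all genes), and 10 did at 48 h (23.8%, against 11.5%). These counts include the low reading Rps27, and among the 41 genes reading 6 or more they were 9 at each time. The smallest adjusted p at 24 h was that of Rpl22, which read 14.02, 13.96 and 13.70 in 24 h kidneys and 13.79, 13.86 and 13.76 in 48 h kidneys, against 13.60, 13.50 and 13.58 in sham kidneys. All 6 GalN kidneys exceeded the sham kidneys, with differences of 0.33 ± 0.09 (adjusted p = 0.0744) and 0.24 ± 0.09 (adjusted p = 0.185). At 48 h the smallest belonged to Rpl10a (0.25 ± 0.06, adjusted p = 0.079). The lowest values were those of Rpl37 at 24 h, -0.40 ± 0.14 (adjusted p = 0.135), and Rps6 at 48 h, -0.39.

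The liver and kidney responses were compared directly in 1 model of all 18 arrays. The liver response exceeded the kidney response in 7 of 43 genes at 24 h (16.3%, against 16.5% of all genes) and in 12 of 43 at 48 h (27.9%, against 8.41% of all genes), and it was smaller in 0 at either time. The share at 24 h was close to that of all genes. The median excess of liver over kidney was 0.32 at 24 h and 0.50 at 48 h, and 0.37 at 48 h without 48 h liver C, where 11 genes were called. The 24 h count was 15 without 48 h liver C, beside 2400 of all 12403 genes called higher. It was 4 without sham liver C, 24 h kidney B or C, or sham kidney A or B, beside 1753 to 1956 of all genes. The 48 h count was 7 without 48 h kidney C or sham kidney B, beside 719 and 756 of all genes. Without Rps25 and Rpl14, 6 of the remaining genes were called at 24 h and 11 at 48 h. Rps25 was called at both times (adjusted p = 1.55e-04 and 4.16e-04), with an excess whose size is not known because its kidney and sham readings lay near the floor. Of the other genes, Rps4l (1.87 ± 0.56, adjusted p = 0.0213) and Rpl37 (1.05 ± 0.24, adjusted p = 0.00445) had the largest excess at 24 h. Rpl37 had a difference of 0.64 in liver beside -0.40 in kidney, and the call held with any 1 array left out but not on arrays scaled to Actb or Gapdh, whereas the call of Rps4l was lost without any 1 of 3 arrays, 24 h liver B, 24 h kidney C or sham kidney A (adjusted p = 0.0519 to 0.0543). Rps7 (0.47 ± 0.16, adjusted p = 0.0409 at 24 h and 0.94 ± 0.16, adjusted p = 0.00246 at 48 h) and Rpl7 (0.44 ± 0.10, adjusted p = 0.00436 and 0.60 ± 0.10, adjusted p = 0.00216) were called at both times, although the 24 h call of Rps7 was lost without any 1 of 11 arrays. At 48 h the largest measured were those of Rpl27 (0.94 ± 0.24, adjusted p = 0.0186), Rps7, Rps19 (0.91 ± 0.26, adjusted p = 0.0318) and Rplp2 (0.81 ± 0.18, adjusted p = 0.0109). The call of Rps19 was lost without any 1 of 7 arrays and that of Rpl27 without 48 h kidney C or sham kidney B (adjusted p = 0.0503 to 0.0752).

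Sham organs were compared in the same model. Sham liver exceeded sham kidney in 4 of 43 genes (9.3%, against 18.9% of all genes) and fell below it in 2 (4.7%, against 28.7%), a split that depended on scaling: 27 were higher and 0 lower with each array centred on its median over tested genes, and 5 higher and 6 lower after quantile normalisation. Rps4l (1.12 ± 0.40, adjusted p = 0.0309) and Rpl27a (1.08 ± 0.27, adjusted p = 0.00393) had the largest differences, followed by Rpsa, the laminin receptor precursor of the small subunit (0.49 ± 0.16, adjusted p = 0.018), and Rps18 (0.49 ± 0.14, adjusted p = 0.0103). Rpl27a read 7.70, 7.97 and 7.85 in sham livers, against 7.14, 6.57 and 6.58 in sham kidneys, with no overlap. The calls of Rps4l and Rpsa were each lost without any 1 of 4 arrays. Rpl22 was lower in sham liver (-0.41 ± 0.12, adjusted p = 0.00959), as was Rps29 (-0.21 ± 0.07, adjusted p = 0.0278, lost without any 1 of 4 arrays), but scaled to the Gapdh control sets these became 0.02 and 0.22, and centring gave Rps29 0.16.

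Rplp0 encodes the core of the P-stalk, where elongation factors dock, and the study's text names it as the check on GAPDH in its PCR. In liver it read 15.21, 15.04 and 15.18 at 24 h and 15.16, 15.03 and 15.22 at 48 h, against 14.84, 14.72 and 14.70 in sham. Every GalN liver lay above every sham liver. The difference was 0.39 ± 0.08 (1.31-fold, adjusted p = 0.009) at 24 h, called with any 1 array left out but not in 5 of 16 other settings (arrays centred, scaled to the ribosomal median, Actb or Gapdh, and the rank product), and 0.38 ± 0.08 (1.30-fold, adjusted p = 0.0282) at 48 h, a call lost without 48 h liver A, sham liver B or sham liver C (adjusted p = 0.082 to 0.101) and in 7 of 16 other settings. Its difference relative to the median of the ribosomal protein genes was -0.02 at 24 h and -0.15 at 48 h, which compares it with its own group and was called at neither time. In kidney it read 15.03, 15.02 and 15.02 at 24 h and 14.96, 15.02 and 15.01 at 48 h, against 14.97, 14.88 and 14.70 in sham, differences of 0.17 ± 0.07 (adjusted p = 0.168) and 0.15 ± 0.07 (adjusted p = 0.273).

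Gapdh, the glycolytic enzyme gene used as the PCR reference, has no set of its own here and was read from the mean of the array's 3 Gapdh control sets. In liver these read 14.96, 14.61 and 14.72 at 24 h and 14.06, 14.11 and 13.56 at 48 h, against 14.69, 14.71 and 14.52 in sham. At 48 h all 3 livers lay below all sham livers, by 0.73 on the log2 scale, and this reading was lowest in liver C, the array that stood apart. In kidney the same sets read between 14.99 and 15.10 in all 9 arrays. The gap between Rplp0 and Gapdh was 1.23 ± 0.39 in 48 h livers and 0.38 ± 0.12 in 24 h livers, against 0.11 ± 0.09 in sham livers (SD, n = 3 each), so a ratio to one differed from a ratio to the other by 2.17-fold at 48 h and 1.20-fold at 24 h. Without 48 h liver C the 48 h gap averaged 1.01, and the fold was 1.87. Both liver comparisons, with all arrays, gave p = 0.1 in a two-sided exact permutation test, the smallest that 3 against 3 arrays allow. In kidney the gap was -0.02 ± 0.02 at 48 h and -0.03 ± 0.05 at 24 h, against -0.22 ± 0.13 in sham. The kidney folds were 1.15 at 48 h and 1.14 at 24 h, and every GalN kidney gap lay above every sham kidney gap. The lowest sham kidney gap was that of array C, -0.36. Both kidney comparisons also gave p = 0.1 in the exact permutation test. With 3 against 3 arrays that test cannot reach 0.05, so it does not decide whether the gap changed in either organ.

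**Figure D3:**
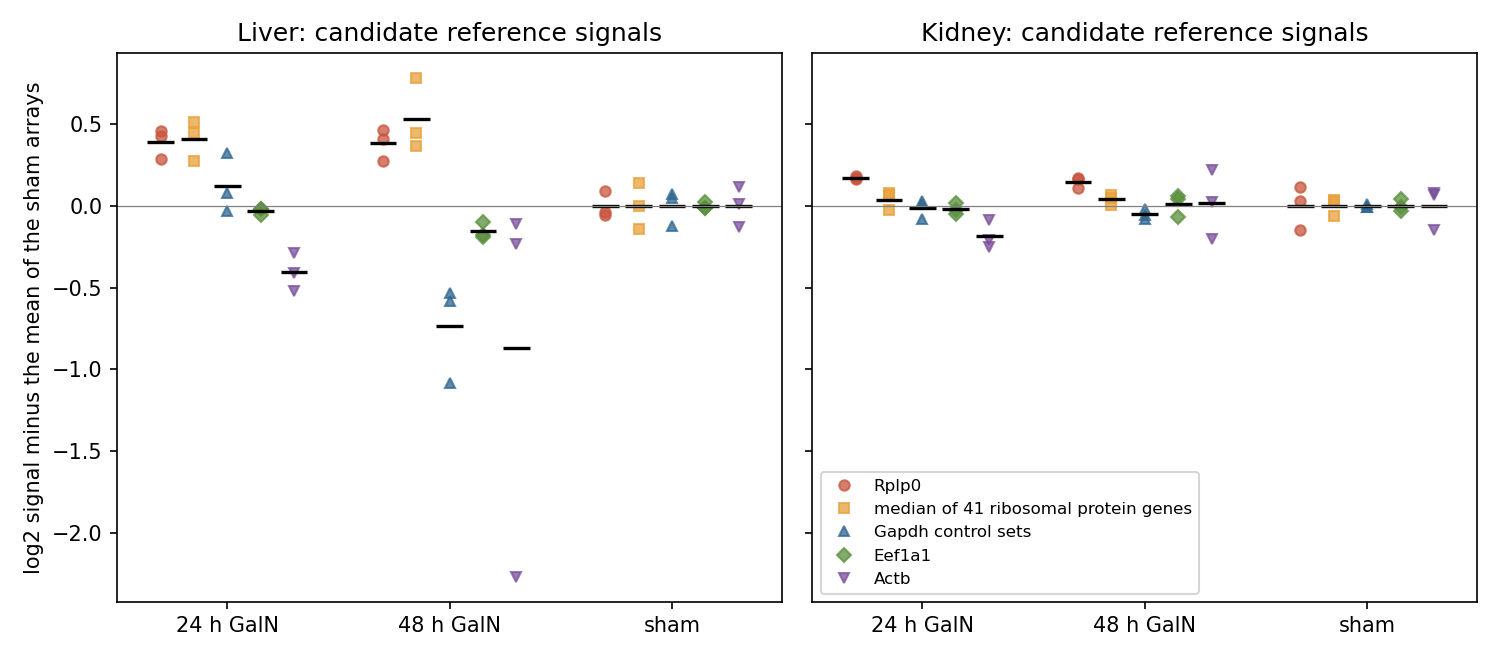
Log2 signal by group, minus the mean of the sham arrays of the same organ, for 5 candidate references; points are arrays and bars are group means. In liver Rplp0 and the ribosomal median rise in both GalN groups, the Gapdh control sets drop at 48 h and Actb falls farthest in 1 array at 48 h, while Eef1a1 lies close to 0.

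Across the 9 liver arrays the SD of Rplp0 was 0.21, the 7th smallest of 41 ribosomal protein genes, whose SDs ran from 0.09 to 2.42 with a median of 0.30. The smallest were those of Rps2 (0.09), Rps29 (0.13) and Rps4x (0.15). The largest were those of Rps25 (2.42, which spans readings near the floor), Rps4l (1.06) and Rpl14 (0.60). The value of Rpl14 rests on 48 h liver C, where it read 6.45, against 4.60 to 4.81 in the other 8 livers, over which its SD was 0.07, the smallest of the 41. Over those 8 arrays the SD of Rplp0 was again 0.21, but the 14th smallest. Across the 9 kidney arrays the SD of Rplp0 was 0.11, the 12th smallest, with a median of 0.12 over the genes. Rpl39 (0.06), Rpl14 (0.07) and Rps2 (0.07) had the smallest there, and Rps4l (0.49), Rpl27a (0.39) and Rpl37 (0.26) the largest. The low SD of some genes has to be read with care, because the deposited table repeats values: Rps2 had exactly the same reading, 13.60, in 10 of 18 arrays, Rpl14 one of 4.64 in 9 and Rpl39 one of 8.64 in 8. Only 4 of the 41 genes had a value repeated in 5 or more arrays, and Rplp0, Rps29 and Rps4x had none.

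Other genes in common use as references were read beside them. Eef1a1, a translation elongation factor and itself a TOP gene, had the lowest SD of 13 such genes, 0.08 in liver and 0.04 in kidney, where the Gapdh control sets also had 0.04. It read 15.16 to 15.20 in 24 h livers and 15.03 to 15.12 in 48 h livers, against 15.20 to 15.24 in sham livers, so that all 6 GalN livers lay below all sham livers. Its differences of -0.03 ± 0.05 at 24 h and -0.15 ± 0.05 at 48 h were not called (adjusted p = 0.699 and 0.107). Polr2a, the large subunit of RNA polymerase II, rose by 2.37 ± 0.58 in 24 h liver (adjusted p = 0.0192), and Tbp, the TATA-binding protein, by 1.54 ± 0.13 (adjusted p = 3.30e-04). Gusb, which encodes beta-glucuronidase, rose by 0.48 ± 0.10 at 24 h (adjusted p = 0.0108) and 0.52 ± 0.10 at 48 h (adjusted p = 0.0233). Ppib, a cyclophilin of the endoplasmic reticulum, was lower at 24 h (-1.05 ± 0.17, adjusted p = 0.00353), and Sdha, of mitochondrial complex II (-0.88 ± 0.13, adjusted p = 0.0104) and B2m, the light chain of MHC class I (-0.41 ± 0.07, adjusted p = 0.0182) were lower at 48 h. Actb was not called in liver (-0.41 ± 0.53 and -0.87 ± 0.53), but it read 12.15 in 48 h liver C, against 14.19 and 14.31 in the other 48 h livers. Without that array Actb was called lower at 24 h (-0.41 ± 0.09, adjusted p = 0.0163) and Tubb5, a beta-tubulin, higher at 48 h (1.36 ± 0.30, adjusted p = 0.0351). Ppib was then called lower at 48 h too (-0.72 ± 0.07, adjusted p = 0.00484, limma), which it was not with all arrays (-0.51 ± 0.17, adjusted p = 0.112). With all arrays Hprt, Pgk1, Tfrc, Tubb5 and Ywhaz were not called in either liver comparison with sham. In kidney 1 of the 13 genes was called against sham, Ywhaz at 24 h (-0.67 ± 0.08, adjusted p = 0.0167).

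Scaling every array to a reference moved the calls over all genes. As deposited, 2161 genes were called higher and 1805 lower in liver at 24 h, and 753 and 475 at 48 h. Scaled to Rplp0 these became 1295 higher and 4438 lower at 24 h and 356 and 2344 at 48 h, and scaled to the median of the ribosomal protein genes 1096 and 3356 at 24 h and 235 and 2795 at 48 h. Scaled to the Gapdh control sets they were 1625 and 1851 at 24 h but 6952 and 146 at 48 h, and scaled to Actb 1055 and 315 at 24 h and 797 and 25 at 48 h. The Actb scaling at 48 h leans on liver C, where Actb read 12.15. The 24 h counts with Actb are not free of that array either, because the fit shares its spread over all 9 liver arrays. The SE of Actb itself at 24 h was 0.53 with 48 h liver C and 0.09 without it. Without that array the 48 h difference of Actb was -0.17, in place of -0.87. In kidney, 265 higher and 372 lower at 24 h became 179 and 1171 with Rplp0, and 155 and 168 at 48 h became 118 and 676. The median difference of all genes tested, close to 0 as deposited, became -0.39 at 24 h and -0.35 at 48 h in liver with Rplp0 and 0.76 at 48 h with Gapdh. For the ribosomal protein genes themselves the 24 h liver median was 0.21 with arrays centred, 0.24 with Gapdh, 0.77 with Actb and 0.43 after quantile normalisation, and the 48 h median was 0.41, 1.28, 1.42 and 0.54, all positive. Scaling to Rplp0 (-0.02 and 0.17) or to their own median (-0.04 at 24 h) sets these genes against themselves, so that a median near 0 follows from the scaling. The calls among them moved further than the median. With arrays centred, 2 of 43 were called higher and 1 lower at 24 h, beside 1791 and 2297 of all 12071 genes. With Gapdh 2 were called higher at 24 h. In both settings the share called higher at 24 h was below that of all genes. At 48 h 3 were higher with arrays centred, beside 456 of all genes. After quantile normalisation 28 were called higher at 24 h and 23 at 48 h, beside 2127 and 655 of all genes. The difference between their median and that of all genes, which a shift of a whole array cannot change, was 0.36 at 24 h and 0.52 at 48 h.

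**Figure D4:**
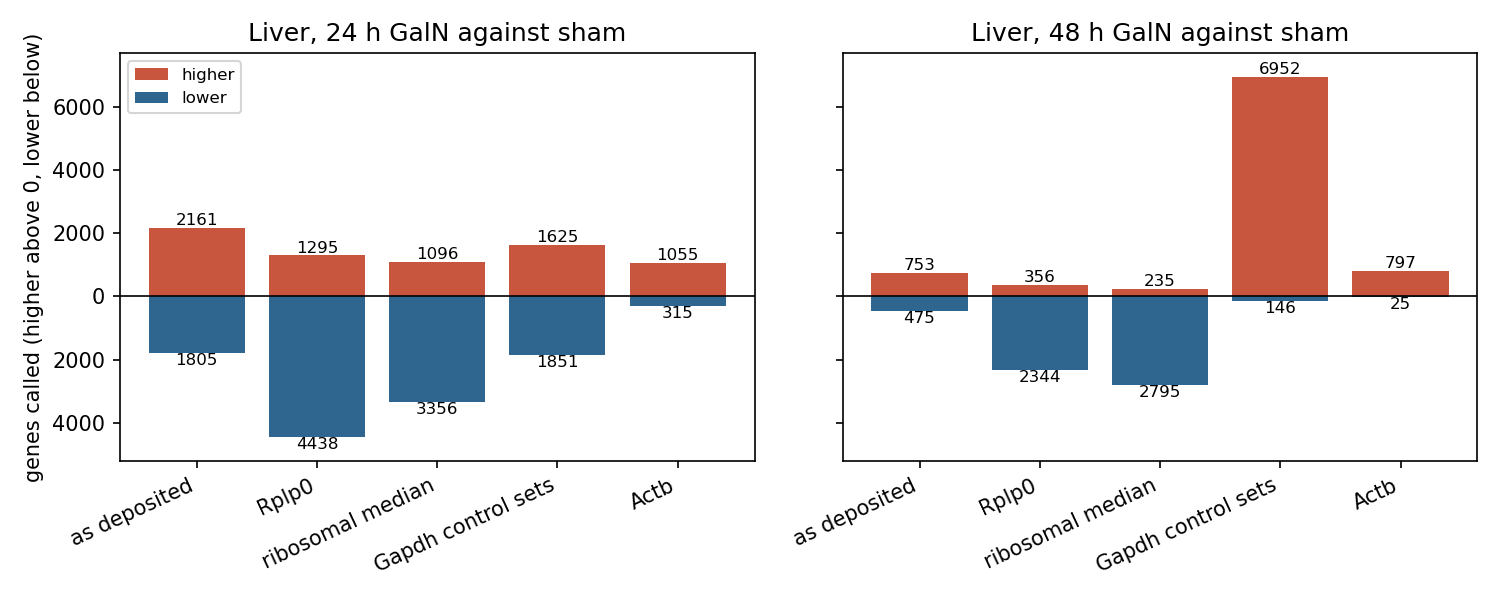
Number of genes called higher (above 0) and lower (below 0) by limma in liver, GalN against sham, with the arrays as deposited and after scaling each to 1 reference. Scaling to Rplp0 or to the ribosomal median turns most calls to lower at both times, and scaling to the Gapdh control sets at 48 h turns 6952 genes to higher.

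Other parts of the translation machinery were read as lists of known genes, beside 17.9% of all genes called higher and 15% lower at 24 h and 6.24% and 3.94% at 48 h. In liver at 24 h, 19 of 24 ribosome assembly factors and ribosomal protein chaperones were called higher and 0 lower (median 1.34), led by Tsr1 (3.89), Rrp12 (3.17) and Grwd1 (3.14), and at 48 h 7 were (median 0.64). Of 26 initiation factors 13 were higher at 24 h (median 0.68, led by Eif1a at 2.13) and 5 at 48 h (median 0.37), with 0 lower. Of 18 elongation factors and other TOP genes 7 were higher at 24 h (median 0.52) and 9 at 48 h (median 0.61), among them Nap1l1 at 1.40 and 1.57, with 0 lower. Of 21 genes of translational control 4 were higher (19%) and 4 lower (19%) at 24 h, near the shares of all genes, and 0 higher and 2 lower (9.52%) at 48 h; Eef2k, the kinase that inactivates elongation factor 2, was lower at both, with differences of -2.02 and -2.38. Without 48 h liver C, 12 assembly factors and 12 initiation factors were higher at 48 h, and 11 elongation factors and other TOP genes at 24 h.

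Of the 73 genes of the mitochondrial ribosome 10 were higher (13.7%, against 17.9% of all genes) and 12 lower (16.4%, against 15%) at 24 h, with a median of -0.10. At 48 h 16 were higher (21.9%, against 6.24%) and 0 lower (3.94% of all genes), with a median of 0.52, and 0.33 without 48 h liver C. Mrpl19 (1.70) and Mrpl14 (-1.66) had the largest changes at 24 h and Mrpl21 (1.32) at 48 h. The difference between these genes and the cytosolic ones was not tested. In kidney, 0 mitochondrial genes were called at 24 h and 2 were lower at 48 h, Mrpl12 (-0.45) and Mrpl35 (-0.38).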

How the data were processed

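Total RNA from whole livers and kidneys was hybridised to 1 array per sample. The values deposited by the authors are log2 signal per probe set, which the submitters' processing notes credit to gcRMA (version not given in the sources used here). The table held 45101 probe sets, 64 of them controls. GEO's platform annotation gave 34945 sets 1 gene, 932 several and 9160 none. The members and lists were chosen with earlier results of these data known. The test was limma 3.58.1 (R 4.3.3; lmFit and eBayes with trend) on group means, on the 9 arrays of 1 organ or on all 18 for comparisons of organs, over genes above the array's median (the 50th percentile) in at least 3 arrays, with Benjamini-Hochberg adjustment over all of them; the code was tested on simulated data. Named genes were Rplp0, the low readings, the 5 largest called changes per comparison, paralogues, Rpl11 and Rps6, and the 3 most and least stable. Arrays have no read depth; 3 per group limit the precision. Protein sequences were not used here.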

Additional observations from a re-analysis of the deposited data

Results flagged for a closer look

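The liver response differed from the kidney response by the test of that difference (limma, all 18 arrays) in 7 of 43 genes at 24 h (16.3%, against 16.5% of all genes, a share close to the background) and 12 at 48 h (27.9%, against 8.41%), all larger in liver. At 24 h the log2 excess of liver over kidney was 4.55 for Rps25, 1.87 for Rps4l, 1.05 for Rpl37, 0.47 for Rps7, 0.44 for Rpl7, 0.39 for Rps4x and 0.32 for Rps29. At 48 h it was 4.96 for Rps25, 0.94 for Rpl27, 0.94 for Rps7, 0.91 for Rps19, 0.81 for Rplp2, 0.80 for Rps9, 0.79 for Rpl37, 0.73 for Rpl22, 0.71 for Rpl41, 0.60 for Rpl7, 0.46 for Rpl13a and 0.41 for Rps20. The values of Rps25 are not measured sizes, because its readings in sham liver and in kidney lay near the floor. Groups of 3 arrays were too small for a test of outlying arrays.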

How the results depend on the processing

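Counts of called ribosomal protein genes depended on scaling and spread estimates. The cause was not tested. In liver at 24 h the share called higher fell below that of all genes with centring (2 of 43, beside 1791 of 12071). It did so with the Gapdh control sets as well (2 of 43, beside 1625). For liver at 24 h (16 called), quantile normalisation gave 28, centring each array 3, scaling to Rplp0 3, to the ribosomal median 3, to Actb 2, to the Gapdh control sets 2, array weights 30, the 6 arrays compared 26, all 18 arrays 29 and rank product 1. For liver at 48 h (15) these gave 23, 3, 6, 5, 3, 41, 30, no change past 1.5 times (10), 30 and 1, no filter gave 9 and array letter as a replicate block 6. For 48 h against 24 h in liver (4), no filter gave 1, the mean of all sets 1, centring 2, the ribosomal median 2, Actb 0, Gapdh 41, robust eBayes 2, the replicate block 0, the 6 arrays 0 and all 18 arrays 8. For kidney at 24 h (0), every set by itself gave 1, quantile normalisation 3, Gapdh 1 and array weights 1, and at 48 h (0) Gapdh gave 1 and array weights 5. For the liver minus kidney response at 24 h (7), quantile normalisation gave 11, centring 3, Rplp0 3, the ribosomal median 2, Actb 2, Gapdh 2 and array weights 26, and at 48 h (12) centring gave 2, Rplp0 4, the ribosomal median 4, Actb 2, Gapdh 40 and array weights 27. For sham liver against sham kidney (6), quantile normalisation gave 11, centring 27, Rplp0 10, Actb 0, Gapdh 26 and array weights 18. Leaving Rps25 and Rpl14 out of the genes counted, chosen after seeing the data, changed no count past 1.5 times. The other 108 counts under these alternatives, these included, stayed within 1.5 times. Leaving out 1 array at a time gave 7 to 29 calls in liver at 24 h, 5 to 21 at 48 h and 1 to 4 between them, 0 to 2 in kidney at 24 h, 0 to 0 at 48 h and 0 to 1 between them, 4 to 15 and 7 to 16 for the liver minus kidney response at 24 h and 48 h, and 3 to 9 for sham organs. Of 34 named calls, 18 held under every such omission, 4 of them of Rps25, whose low readings lay near the floor. Signs turned, where genes of this group were set against one another, for Rpl11 at 24 h in liver scaled to Rplp0 (-0.036) or the ribosomal median (-0.056), for Rplp0 scaled to the ribosomal median (-0.021 at 24 h and -0.15 at 48 h), and otherwise for Rps20 between 48 h and 24 h with all sets averaged (-0.038), and between sham organs for Rps29 centred (0.16) or scaled to Gapdh (0.22) and Rpl22 scaled to Gapdh (0.019). Within an organ, array letters did not pair the arrays. Correlations of same-letter deviations ran from -0.11 to 0.08 in liver and -0.13 to 0.23 in kidney, against -0.14 to 0.15 and -0.245 to 0.275 for different letters. Between the organs they ran from -0.06 to 0.25, with 2 of 9 over 0.1, against -0.24 to 0.06 for different letters, with 0 of 18. The replicate block gave 12 calls in liver at 24 h, 7 and 13 for the liver minus kidney response and 6 for sham organs. With liver and kidney of 1 letter as a random block, the liver minus kidney response gave 8 calls at 24 h and 17 at 48 h. Brightness limits Rpl39l, Rpl3l and Rps16, which stayed near the table's lowest value.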
